A study of Homo sapiens with 9 samples.

Results

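The mRNAs of 40 translation initiation factors were followed through an eCLIP experiment on MDH2, the malate dehydrogenase of the mitochondrial matrix. The members were taken from a list of gene symbols, each tied to 1 Ensembl identifier, and are 40 of 29166 identifiers with counts in exon windows. Initiation factors bring the initiator tRNA, the mRNA and the ribosomal subunits together at the start codon. eIF2 carries the initiator tRNA and is recharged by the exchange factor eIF2B, eIF3 is the large scaffold on the small ribosomal subunit, and eIF4E, eIF4G and eIF4A bind the cap and unwind the 5′ leader. The 4E-BPs hold eIF4E away from eIF4G, and eIF5, eIF5B and eIF6 act at start codon recognition and subunit joining.

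The study used Huh7 cells, a human hepatoma line, exposed to ultraviolet light so that proteins in contact with RNA became cross-linked to it. An immunoprecipitation with an antibody to MDH2 (MDH2 IP, 3 libraries, 14 PCR cycles) was set beside a size-matched input taken from the lysate (SMI, 3 libraries, 9 PCR cycles) and an immunoprecipitation with an isotype control antibody (IgG IP, 3 libraries, 14 PCR cycles). All 9 libraries came from irradiated cells of the same line with no further treatment or genetic change. Nothing in the labels ties the replicates to separate cultures, so the p-values measure the spread between these libraries, which may be technical.

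The values are cross-link counts in windows of 50 nt placed every 20 nt along exons and introns, and 1 cross-link therefore falls into more than 1 window. The libraries held 5899998 to 9482501 window counts in MDH2 IP, 8311118 to 9788565 in SMI and 1631267 to 2942816 in IgG IP, and comparisons with IgG IP rest on the lowest depth. Exons took 53.6 to 59.9% of the counts in MDH2 IP, 43.9 to 49.8% in SMI and 31.0 to 38.5% in IgG IP. The liver markers of the line were present, from SERPINA1 at a mean of 95.3 to APOB at 7399 exon CPM in SMI, with ALB at 1052. Of the genes listed for other cell types, the endothelial gene PECAM1 stood highest at 8.72, followed by COL1A2 at 3.83. The others with counts stood at 0.419 (COL1A1) or below, with the leukocyte gene PTPRC at 0.230 and the endothelial gene VWF at 0.153. CPM are counts scaled to library size, here on 1 scale over the 9 libraries (TMM normalisation of gene counts). Each fit of genes, exons, windows, introns or UTR and coding sums used TMM factors of its own. Its log2 fold changes can therefore differ from the ratio of the printed CPM, and values of exons and of whole genes are not on the same scale.

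Sequences are shown for 5 coding stretches of EIF3A and EIF4G1 exons in which MDH2 IP exceeded SMI, as examples picked after their values were seen. A window was called when its log2 fold change was at least 1 and its one-sided p was at most 0.05 after a correction for neighbouring windows that share bases and adjustment over all windows. These runs of called windows lay wholly in coding exons and are given 5′ to 3′ on the strand of the mRNA, with the window holding the most MDH2 IP cross-links in capitals. Positions are on GRCh38 and the letters are those of the reference genome. The first 2 are in exons 15 and 18 of EIF3A (chr10:119050521-119050570 and chr10:119042454-119042503, minus strand), and the last 3 are in exons 10 and 23 of EIF4G1 (chr3:184321934-184322023, chr3:184327216-184327305 and chr3:184327316-184327405, plus strand).
EIF3A exon 15: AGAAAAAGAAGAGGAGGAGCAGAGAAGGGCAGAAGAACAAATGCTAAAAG
EIF3A exon 18: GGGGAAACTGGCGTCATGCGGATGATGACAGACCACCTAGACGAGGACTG
EIF4G1 exon 10: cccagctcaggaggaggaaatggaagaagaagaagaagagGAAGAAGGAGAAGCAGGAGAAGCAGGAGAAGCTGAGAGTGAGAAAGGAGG
EIF4G1 exon 23 (first stretch): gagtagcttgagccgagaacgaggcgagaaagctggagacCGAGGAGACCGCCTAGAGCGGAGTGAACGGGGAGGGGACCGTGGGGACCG
EIF4G1 exon 23 (second stretch): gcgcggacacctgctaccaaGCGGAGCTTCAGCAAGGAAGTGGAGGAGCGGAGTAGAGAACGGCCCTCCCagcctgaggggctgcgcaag

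Window counts at these places were small. In the capitalised window of EIF4G1 exon 10 the 3 MDH2 IP libraries held 43, 28 and 32 counts, the SMI libraries 3, 12 and 9, and the IgG IP libraries 9, 5 and 3 (log2 fold change over SMI 1.91 ± 0.38 SE, edgeR quasi-likelihood test, adjusted p = 0.00796). The second stretch of EIF4G1 exon 23 held 29, 27 and 21 counts in MDH2 IP, 7, 5 and 5 in SMI, and 5, 1 and 1 in IgG IP (1.96 ± 0.39, adjusted p = 0.00568). In both windows the MDH2 IP libraries all exceeded the SMI libraries. The IgG IP libraries were shallower, so their raw counts are not on the same scale. Over IgG IP the log2 fold changes of the 2 windows were 0.01 ± 0.48 and 0.88 ± 0.60, and neither was called. EIF4G1 held 3 more such stretches whose letters are not printed. The first, in exon 26, showed 22, 16 and 12 counts for MDH2 IP against 4, 6 and 4 for SMI (1.61 ± 0.42, adjusted p = 0.0467). Those in exon 28 held 42, 19 and 26 against 6, 3 and 11 (1.89 ± 0.42, adjusted p = 0.0185) and 27, 26 and 28 against 6, 7 and 9 (1.70 ± 0.37, adjusted p = 0.0178).

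The capitalised window of EIF4G1 exon 10 was 90.0% A or G and that of EIF3A exon 15 was 88.0%, while that of the second EIF4G1 exon 23 stretch was 66.0% and those of exons 26 and 28 were 58.0, 64.0 and 52.0%. Over the 18 called windows with a fixed position and a coding midpoint, which lie in 3 members and partly overlap, the share of A or G had a median of 66.0% (range 52.0 to 94.0%). The 639 tested windows of this kind in 20 members that were not called had a median of 54.0% (range 18 to 88%). These shares were chosen after the sequences were seen and carry no test.

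Of 1101 member exon windows tested in MDH2 IP over SMI, 37 windows in 7 members were called (3.36%), beside 3.77% of all 51108 windows tested. Such shares of all windows take exon and intron windows together, here and below. The number depended on the scaling and on single libraries, with 236 windows called when total counts were the library size and 4 to 23 when any 1 library was left out. EIF4G1, the scaffold that joins the cap-binding protein to eIF3, held 19 of them, in exons 10, 23, 26 and 28. EIF3B, a large subunit of eIF3, and EIF2S2, the beta subunit of eIF2, held 6 each, followed by EIF3A and EIF3G with 2 each and EIF1AX and EIF5A with 1 each. In MDH2 IP over IgG IP, 0 of 609 member exon windows were called with edgeR, beside 0.148% of all windows tested, and total counts as library size gave 39. In IgG IP over SMI, 1 of 523 member exon windows was called, in EIF5A, beside 6.31% of all windows tested.

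At the level of whole genes, all 40 members passed the filter of 10 counts in 3 libraries in each comparison. In MDH2 IP over SMI, 4 members were higher and 9 lower (edgeR quasi-likelihood test, adjusted p of at most 0.05 over 13923 genes), or 10.0% and 22.5% of the members, beside 8.6% and 10.7% of all genes. The 9 include EIF4A2, whose call was lost without windows over small RNA genes nested in it (0.17, adjusted p = 0.404). With total counts as library size the split turned to 7 higher and 4 lower. Without a test, all MDH2 IP libraries lay above the SMI libraries in 8 members and below in 11, beside 20% and 18.9% of all genes. The median log2 fold change of the members was -0.20, against 0.01 over all genes tested. For MDH2 IP over IgG IP these medians were 0.27 and 0.04, and for IgG IP over SMI -0.32 and -0.11. In MDH2 IP over IgG IP, 0 members were higher and 1 was lower, beside 0.302% and 1.8% of all genes. The DESeq2 test called 1 member higher, and the share of all genes it called was not counted. All MDH2 IP libraries lay above the IgG IP libraries in 15 members and below in 2, beside 13.4% and 10.1% of all genes. In IgG IP over SMI, 1 member was higher and 8 were lower, beside 9.59% and 5.98% of all genes, with all IgG IP libraries above in 4 and below in 17, beside 16.1% and 21.7%. EIF1AX, EIF2S1, EIF3H, EIF3L, EIF4A2 and EIF4G2 were called lower over SMI in both MDH2 IP and IgG IP. In IgG IP they stood at -1.14, -1.07, -1.10, -1.16, -1.51 and -0.72 (log2). MDH2 IP over IgG IP was not called in any of them (0.40, 0.58, 0.38, 0.51, 0.16 and 0.24). With 1 library left out, the IgG IP calls of EIF2S1 and EIF3H were each lost in 5 of 6 fits. Those of EIF1AX and EIF4G2 were lost in 2 and 1. The MDH2 IP calls over SMI of EIF4G1, EIF4A2, EIF4EBP2, EIF3E and EIF3M were kept in each of the 6 fits that left out 1 library. The MDH2 IP calls over SMI of the other 8 members were lost in 3 to 6 of them, all with the same direction. The call of EIF3G was lost without MDH2 IP 1, SMI 1 or SMI 3 (log2 fold change 0.52 to 0.74 over the 6 fits, adjusted p up to 0.117), that of EIF3H without MDH2 IP 1, MDH2 IP 2, SMI 1 or SMI 2 (-0.95 to -0.63, up to 0.112) and that of EIF1AX without MDH2 IP 1, MDH2 IP 2, SMI 1 or SMI 3 (-0.93 to -0.60, up to 0.123). That of EIF3L was kept only without SMI 3 (-0.82 to -0.47, adjusted p up to 0.110), those of EIF2S2 (0.51 to 0.78, up to 0.152) and EIF2B5 (0.43 to 0.53, up to 0.169) only without MDH2 IP 3, and those of EIF2S1 (-0.58 to -0.46, up to 0.120) and EIF4G2 (-0.57 to -0.47, up to 0.0830) in no fit. These comparisons share libraries pairwise, so their values are given side by side and are not independent.

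**Figure D1:**
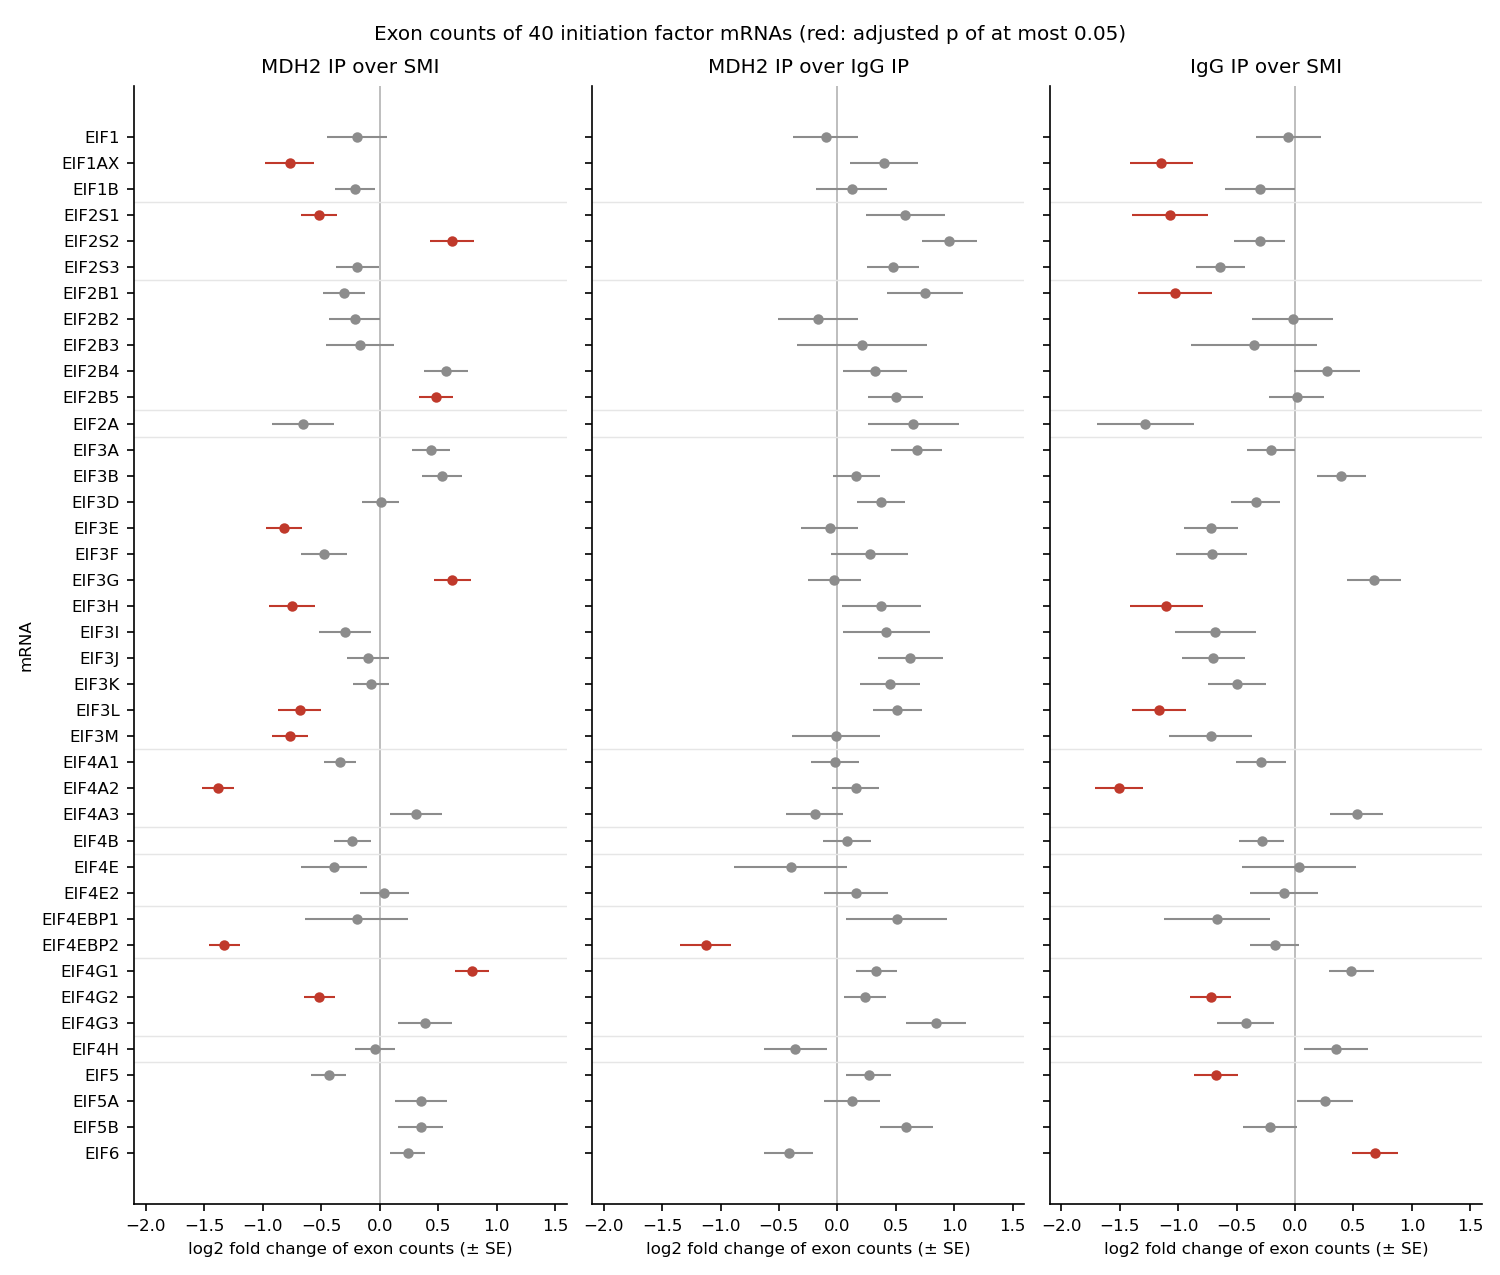
Log2 fold change of exon counts (horizontal axes, bars show the standard error) for each of the 40 mRNAs (vertical axis, thin lines separate families) in MDH2 IP over SMI, MDH2 IP over IgG IP and IgG IP over SMI, with red points at an adjusted p of at most 0.05. Red points number 13 in the first panel, 1 in the second (EIF4EBP2) and 9 in the third.

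EIF4G1 was the member with the highest log2 fold change over SMI. Its exons stood at 1243, 1183 and 1271 CPM in MDH2 IP, 671, 610 and 812 in SMI, and 1016, 842 and 993 in IgG IP. The MDH2 IP libraries all exceeded those of the other groups, but the IgG IP libraries were themselves above every SMI library. The log2 fold change was 0.79 ± 0.15 (SE) over SMI (adjusted p = 0.00625), 0.33 ± 0.18 over IgG IP (adjusted p = 0.394) and 0.48 ± 0.19 for IgG IP over SMI (adjusted p = 0.115).

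EIF4G1 exon 23, a coding exon (chr3:184327216-184327448), was the member exon that was higher in MDH2 IP than in both controls. It held 64.6, 67.1 and 77.8 CPM in MDH2 IP, 23.9, 24.1 and 27.5 in SMI, and 29.2, 24.2 and 34.6 in IgG IP, with no overlap between MDH2 IP and either control. The log2 fold change was 1.25 ± 0.22 over SMI (adjusted p = 0.00163) and 1.23 ± 0.31 over IgG IP (adjusted p = 0.0470), and the latter was not called in any of the 6 fits that left out 1 library (log2 fold change 1.12 to 1.37, adjusted p = 0.0677 to 0.200). The call over SMI held in all 6 (adjusted p up to 0.0213). Exons 2, 26 and 28 were higher over SMI only, at 0.76, 0.78 and 0.96, and were called in 1, 0 and 4 of those fits. Exon 2, outside the exons of the representative transcript, was also higher in IgG IP than in SMI (1.38, adjusted p = 0.00321).

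EIF2S2, the eIF2 subunit that binds eIF5 and eIF2B, had 167, 164 and 115 CPM in MDH2 IP, 107, 95.3 and 81.6 in SMI, and 84.1, 69.4 and 69.2 in IgG IP. Every MDH2 IP library was above all 6 control libraries (0.62 ± 0.19 over SMI, adjusted p = 0.0448, and 0.96 ± 0.24 over IgG IP, adjusted p = 0.0617). Exons 1, 2 and 4 were higher over SMI, at 1.72, 0.88 and 1.76, and were called in 6, 1 and 6 of the 6 fits that left out 1 library. EIF2S1, the alpha subunit whose phosphorylation slows initiation, was lower, with 55.4, 52.7 and 52.0 CPM in MDH2 IP against 73.1, 68.4 and 83.0 in SMI (-0.52 ± 0.15, adjusted p = 0.0402) and 39.8, 16.1 and 48.0 in IgG IP. EIF2S3, the gamma subunit that binds the initiator tRNA, had 279, 234 and 189 CPM in MDH2 IP, 296, 272 and 215 in SMI and 163, 187 and 140.3 in IgG IP, with MDH2 IP and SMI overlapping. Its log2 fold change over SMI was -0.19 (adjusted p = 0.515), while its first exon was higher (1.15, adjusted p = 0.0325) and its last exon lower (-0.87, adjusted p = 0.0213). Each of these 2 exon calls held in 2 of the 6 fits that left out 1 library (adjusted p up to 0.131 and 0.153).

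Of the 5 eIF2B subunits, EIF2B5, which holds the catalytic exchange activity, was higher over SMI, with 104, 95.6 and 90.5 CPM in MDH2 IP, 63.4, 68.7 and 70.6 in SMI, and 62.0, 82.3 and 55.7 in IgG IP (0.48 ± 0.15, adjusted p = 0.0446). EIF2B4 had a log2 fold change of 0.57 (adjusted p = 0.0584), and EIF2B1, EIF2B2 and EIF2B3 lay between -0.31 and -0.17. EIF2A, a separate factor that can deliver initiator tRNA, had -0.66 (adjusted p = 0.116).

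The 12 eIF3 subunits went in both directions. EIF3G, a subunit with an RNA recognition motif, was higher, with 142, 146 and 151 CPM in MDH2 IP and 80.7, 108 and 90.1 in SMI (0.62 ± 0.16, adjusted p = 0.0227). IgG IP held 119, 187 and 131 CPM of it, and the log2 fold change of MDH2 IP over IgG IP was -0.03 (adjusted p = 0.976). EIF3E, EIF3H, EIF3L and EIF3M were lower. EIF3E had 76.3, 64.4 and 77.5 CPM in MDH2 IP, 121, 135 and 119 in SMI and 95.6, 61.3 and 61.5 in IgG IP (-0.82 ± 0.15, adjusted p = 0.00631).

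EIF3M had 50.9, 44.6 and 45.2 CPM in MDH2 IP, 74.2, 83.6 and 76.7 in SMI and 54.9, 64.5 and 15.4 in IgG IP (-0.77 ± 0.16 over SMI, adjusted p = 0.00887). EIF3H had 64.3, 58.3 and 89.3 CPM in MDH2 IP, 110, 133 and 105 in SMI and 49.6, 80.6 and 26.9 in IgG IP (-0.75 ± 0.20, adjusted p = 0.0256). EIF3L had 131, 142 and 134 CPM in MDH2 IP, 190, 270 and 177 in SMI and 106, 79.0 and 90.3 in IgG IP (-0.68 ± 0.18, adjusted p = 0.0288). In all 4 the MDH2 IP libraries lay below the SMI libraries without overlap. IgG IP over SMI gave -0.72 (EIF3E), -1.10 (EIF3H), -1.16 (EIF3L) and -0.72 (EIF3M), with EIF3H and EIF3L called. EIF3A (0.44, adjusted p = 0.0861) and EIF3B (0.53, adjusted p = 0.0591), the largest subunits, did not pass the test of MDH2 IP over SMI, and the other 5 lay between -0.48 and 0.01.

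EIF3A differed along its length. Exon 18, in the coding part, held 166, 171 and 111 CPM in MDH2 IP, 81.6, 87.5 and 51.7 in SMI and 87.6, 91.9 and 78.8 in IgG IP (0.80 ± 0.24 over SMI, adjusted p = 0.0442). Exon 21, the last, held 33.6, 45.6 and 27.5 CPM in MDH2 IP, 53.7, 59.5 and 56.0 in SMI and 32.8, 33.9 and 36.5 in IgG IP (-0.89 ± 0.23, adjusted p = 0.0236). EIF3B exon 2 held 108, 89.8 and 126 CPM in MDH2 IP, 37.2, 38.1 and 62.3 in SMI and 98.3, 59.7 and 67.3 in IgG IP (1.02 ± 0.24 over SMI, adjusted p = 0.0137). With 1 library left out, EIF3A exons 18 and 21 were each called in 2 of the 6 fits (adjusted p up to 0.152 and 0.122). EIF3B exon 2 was called in 3 of them (up to 0.100).

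EIF4A2, a DEAD-box helicase of the cap complex, had the most negative log2 fold change of the members, with 483, 506 and 460 CPM in MDH2 IP, 1160, 1246 and 1288 in SMI and 525, 358 and 381 in IgG IP (-1.38 ± 0.13 over SMI, adjusted p = 0.000164). Its difference lay over small nucleolar RNA genes within the gene, which guide the modification of ribosomal RNA. The windows of EIF4A2 exon 2 take in introns retained in some transcripts, and windows over SNORD2, SNORA63B, SNORA81, SNORA63 and SNORA4 held 71.7, 75.6 and 76.1% of the EIF4A2 exon counts in SMI, 21.7, 32.1 and 21.8% in MDH2 IP and 48.9, 28.8 and 33.3% in IgG IP. Without those windows EIF4A2 stood at 379, 343 and 360 CPM in MDH2 IP, 329, 304 and 308 in SMI and 268, 255 and 254 in IgG IP. The sign then turned, with a log2 fold change over SMI of 0.17 ± 0.13 (adjusted p = 0.404). SNORA81 itself, under its own identifier, was lower in MDH2 IP than in SMI (-4.05 ± 0.23, adjusted p = 5.53e-06).

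**Figure D2:**
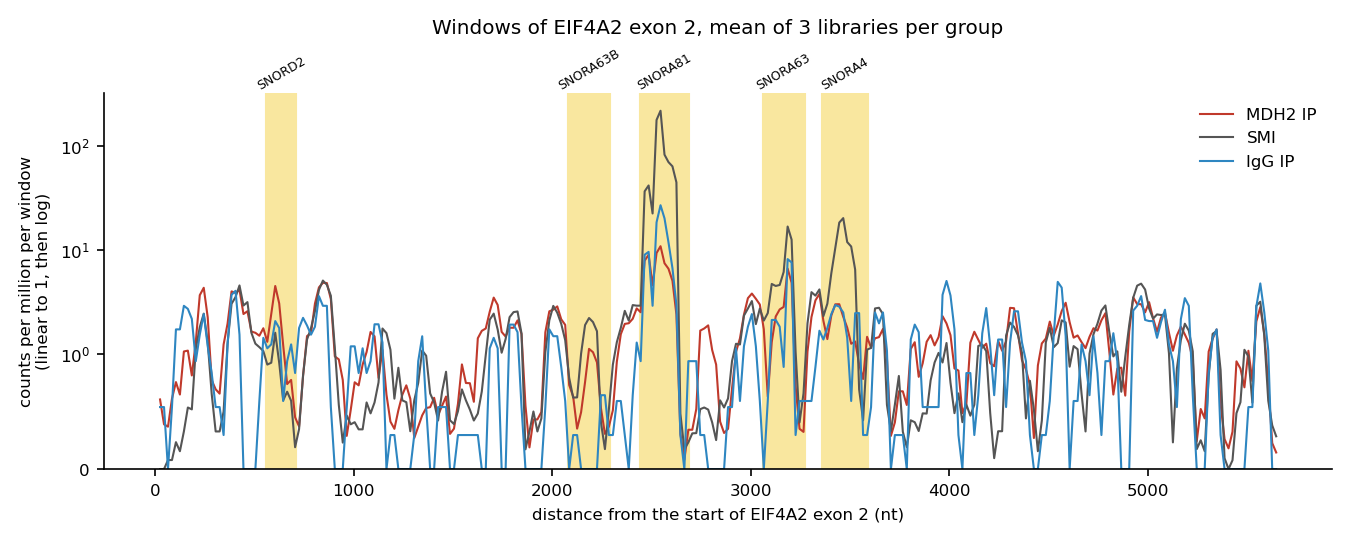
Mean CPM per window (vertical axis, linear to 1 and logarithmic above) along EIF4A2 exon 2 (horizontal axis, nt from its start) in MDH2 IP, SMI and IgG IP, 3 libraries each, with windows over nested small nucleolar RNA genes shaded. The SMI line stands above the others over SNORA81 and SNORA4 and runs near the MDH2 IP line over most of the unshaded stretch.

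The same windows touched 2 other members. EIF4A1, the other cytoplasmic eIF4A, had 677, 634 and 692 CPM in MDH2 IP and 898, 752 and 829 in SMI (-0.34 ± 0.14, adjusted p = 0.107), with 813.6, 502 and 657 in IgG IP. Without the windows over SNORA48, SNORD10 and SNORA67, which held 36.5 to 41.3% of its SMI counts and 9.75 to 22.0% of its MDH2 IP counts, its log2 fold change over SMI was 0.13 ± 0.16 (adjusted p = 0.591). The lower value of its exon 4 over SMI (-0.73 ± 0.17, adjusted p = 0.0136) became 0.13 (adjusted p = 0.757) without them. EIF4G2 kept its lower call without the windows over SNORD97 (-0.46 ± 0.14, adjusted p = 0.0404). Over all members, windows of nested small RNA genes held 14.7 ± 0.44% (SD, n = 3) of exon counts in SMI, 2.89 ± 1.01% in MDH2 IP and 4.2 ± 1.95% in IgG IP. In EIF4A1, 26.8% of the counts in windows of at least 50 counts were also listed with equal values under a readthrough gene that overlaps it.

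EIF4G2, a relative of eIF4G that lacks the part binding eIF4E, was lower, with 633, 547 and 564 CPM in MDH2 IP, 784, 806 and 850 in SMI and 500.2, 453 and 488 in IgG IP (-0.52 ± 0.13 over SMI, adjusted p = 0.0244). Of its 15 exons, 8 were lower, exon 7 and exons 9 to 15, and exon 2 was higher (1.45 ± 0.37, adjusted p = 0.0199). With 1 library left out, exons 2 and 7 were each called in 2 of the 6 fits, exon 14 in 3 and the other called exons in all 6. Exon 12 held 22.2, 12.2 and 10.1 CPM in MDH2 IP, 32.1, 49.1 and 52.7 in SMI and 17.7, 9.68 and 15.4 in IgG IP (-1.79 ± 0.30, adjusted p = 0.00105). EIF4G3, the third eIF4G gene, stood at 0.39 over SMI on the log2 scale (adjusted p = 0.266) and 0.85 over IgG IP (adjusted p = 0.123). EIF4E, the cap-binding protein, had -0.39 (adjusted p = 0.361) and EIF4E2 0.04 (adjusted p = 0.918).

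**Figure D3:**
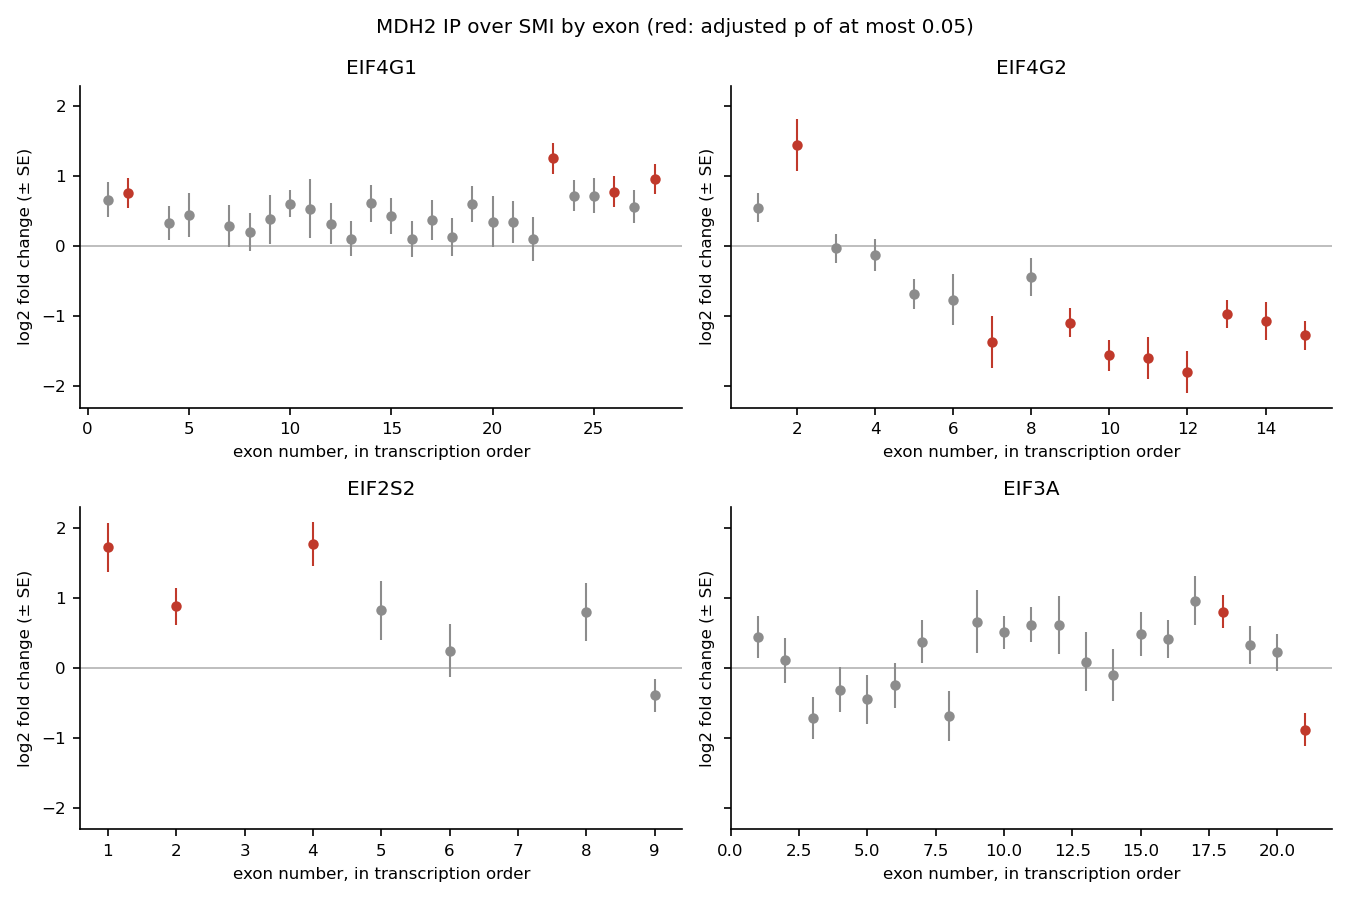
Log2 fold change of MDH2 IP over SMI with its standard error (vertical axis) by exon number in transcription order (horizontal axis) for EIF4G1, EIF4G2, EIF2S2 and EIF3A, with red points at an adjusted p of at most 0.05. Red points lie above 0 in EIF4G1 and at the 5′ end of EIF2S2, and below 0 in exons 7 and 9 to 15 of EIF4G2.

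EIF4EBP2, a repressor of eIF4E, was the member that was lower against both controls. It had 135, 142 and 154 CPM in MDH2 IP, 338, 360 and 360 in SMI and 232, 327 and 359 in IgG IP, with no overlap between MDH2 IP and either. The log2 fold change was -1.33 ± 0.13 over SMI (adjusted p = 0.000230) and -1.13 ± 0.22 over IgG IP (adjusted p = 0.0212), and IgG IP over SMI gave -0.17 (adjusted p = 0.616). Most of its counts lay in exon 3 (chr10:70421716-70428618), which holds the 3′ UTR, with 126, 135 and 150 CPM in MDH2 IP and 324, 342 and 346 in SMI (-1.52 ± 0.18, adjusted p = 3.46e-05). The exon value comes from the scaling of the exon fit, so its distance from the whole-gene value is not a difference within the mRNA. The call against IgG IP was lost when any library but IgG IP 1 was left out (adjusted p up to 0.198). EIF4EBP1, which ranged from 51.4 to 139 CPM within MDH2 IP, had -0.20 ± 0.44 over SMI (adjusted p = 0.791).

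EIF1AX, which helps scanning, was lower, with 40.01, 35.9 and 52.0 CPM in MDH2 IP, 62.0, 62.5 and 88.4 in SMI and 28.3, 33.9 and 32.7 in IgG IP (-0.77 ± 0.21 over SMI, adjusted p = 0.0300). Its first exon was higher over SMI (1.46 ± 0.44, adjusted p = 0.0462) and its last exon lower (-1.42 ± 0.24, adjusted p = 0.000950). These exons were called in 1 and 6 of the 6 fits that left out 1 library (adjusted p up to 0.180 and 0.0168). EIF1 and EIF1B had -0.19 and -0.21 over SMI, neither past the threshold. EIF4B and EIF4H, partners of the helicase, had -0.23 and -0.04, and EIF4A3, a core part of the exon junction complex, had 0.31 (adjusted p = 0.365).

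EIF5, EIF5A, EIF5B and EIF6 did not pass the test over SMI, with log2 fold changes of -0.44, 0.35, 0.35 and 0.24. EIF5A, which helps the ribosome through difficult peptide bonds and is among the 5 members with the most SMI counts, had 518, 448 and 738 CPM in MDH2 IP, 422, 335 and 547 in SMI and 465, 406 and 648 in IgG IP, which overlap. EIF6, which keeps the large subunit from joining early, was higher in IgG IP than in SMI (184, 218 and 169 against 125, 125 and 114 CPM, log2 fold change 0.69 ± 0.19, adjusted p = 0.0337). Its coding part had 0.03 (adjusted p = 0.948) and its 3′ UTR -0.33 (adjusted p = 0.531) in that comparison, while windows outside the exons of the representative transcript held 77, 73 and 41 counts in IgG IP and 46, 57 and 50 in the deeper SMI libraries. Of the EIF6 counts in windows of at least 50 counts, 26.3% were also listed with equal values under another identifier.

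**Figure D4:**
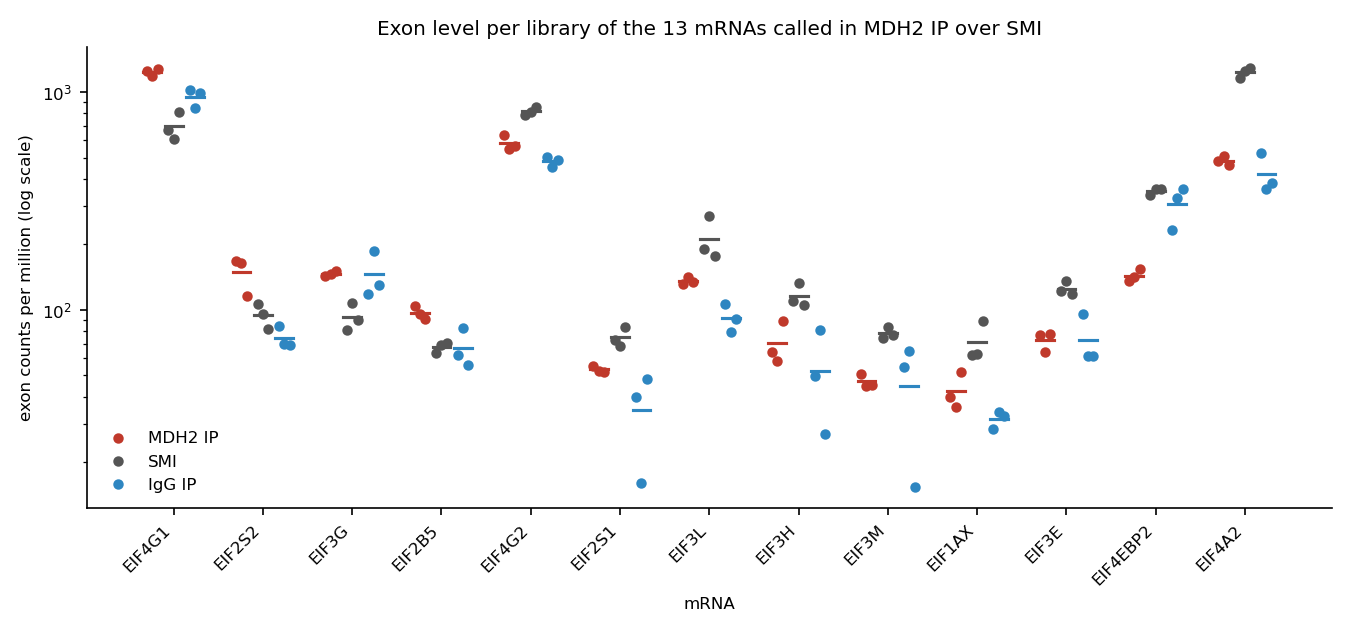
Exon CPM (vertical axis, logarithmic) of each library in MDH2 IP, SMI and IgG IP for the 13 mRNAs called in MDH2 IP over SMI (horizontal axis), with a line at the mean of 3 libraries. The MDH2 IP libraries of EIF4EBP2 lie at 135 to 154 CPM, below both controls, and those of EIF4G1 at 1183 to 1271 CPM, above both.

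By exon, 333 of 466 member exons with counts could be tested in MDH2 IP over SMI, of which 13 exons in 8 members were higher and 31 exons in 17 members lower (3.90% and 9.31%), beside 2.56% and 5.67% of all exons tested. With total counts as library size the split turned to 38 higher and 15 lower. Of the 44 called exons, 16 were called in each of the 6 fits that left out 1 library and 2 in none (EIF3E exon 19 and EIF4G1 exon 26), and all 44 kept their direction. Among genes with at least 3 exons, 12 of 34 last exons of members were lower (35.3%), beside 20.5% of the last exons of all protein-coding genes, with medians of -0.69 and -0.41. Among first exons 3 of 27 were higher (11.1%), beside 6.76%, with medians of 0.44 and 0.50. In MDH2 IP over IgG IP, 1 member exon was higher and 2 were lower of 282, beside 0.184% and 1.26% of all exons. The lower ones were EIF4EBP2 exon 3 (-1.13, adjusted p = 0.0201) and EIF4A1 exon 2 (-1.73, adjusted p = 0.0460), each called in 1 of the 6 fits that left out 1 library. EIF4A1 exon 2 held 15.4, 6.59 and 15.4 CPM in MDH2 IP, 3.70, 3.44 and 2.59 in SMI and 22.1, 38.7 and 67.3 in IgG IP. In IgG IP over SMI, 6 member exons were higher and 21 lower, beside 4.89% and 4.79% of all exons.

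Windows were then summed within each member into 5′ UTR, coding part and 3′ UTR of the representative transcript, leaving out nested small RNA genes. In MDH2 IP over SMI, 9 of 27 members were lower and 1 was higher in the 3′ UTR, 4 of 38 were lower and 2 higher in the coding part, and 0 of 13 were lower and 2 higher in the 5′ UTR, in a fit of 13961 features, nearly all of them whole genes, that called 10.8% lower and 8.58% higher. With 1 library left out, 6 to 9 members were lower in the 3′ UTR, 1 to 5 lower and 0 to 4 higher in the coding part, and 0 to 2 higher in the 5′ UTR. Total counts as library size gave 7 lower in the 3′ UTR, 4 lower and 5 higher in the coding part, and 4 higher in the 5′ UTR. The medians were -0.58, 0.01 and 0.37. The 3′ UTR had a lower log2 fold change than the coding part in 23 of 27 members (median difference -0.51), EIF4G1 being among the 4 exceptions at 1.06 ± 0.19 in its 3′ UTR. These sums were made for members only, so no like value for all genes is given. The last exons of all protein-coding genes with at least 3 exons also had a negative median over SMI, at -0.41. Against IgG IP the 3′ UTR also lay below the coding part, in 22 of 25 members (median difference -0.52), while in IgG IP over SMI 14 of 26 did. For MDH2 IP over IgG IP, last and internal exons of all protein-coding genes had medians of 0.08 and 0.33, and those of members 0.25 and 0.51. For IgG IP over SMI these were -0.49 and -0.24 in all protein-coding genes and -0.49 and -0.48 in members.

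EIF5 showed this pattern, with 54.1, 43.9 and 54.4 CPM of 3′ UTR in MDH2 IP, 131, 125 and 95.3 in SMI and 54.0, 62.9 and 44.2 in IgG IP (-1.24 ± 0.18 over SMI, adjusted p = 0.00211). EIF2S1 had -1.38 ± 0.24 in its 3′ UTR (adjusted p = 0.00490) and EIF3A -1.36 ± 0.25 (adjusted p = 0.00631). Of the exon counts of all members, the 3′ UTRs took 21.9 ± 1.23% (SD, n = 3) in SMI, 17.5 ± 0.96% in MDH2 IP and 21.0 ± 2.43% in IgG IP. The coding parts took 43.9 ± 1.12%, 52.0 ± 1.49% and 40.8 ± 3.81% in the same order.

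Last exons gave calls in members whose whole-gene value did not pass the test. EIF1 exon 2 held 108, 122.9 and 60.6 CPM in MDH2 IP, 150.4, 191 and 121 in SMI and 115, 137 and 59.6 in IgG IP (-0.89 ± 0.25 over SMI, adjusted p = 0.0328), the lowest SMI library lying within the MDH2 IP range. EIF4B exon 17 held 155, 155 and 122 CPM in MDH2 IP, 209, 211 and 186 in SMI and 158, 209.7 and 113 in IgG IP (-0.71 ± 0.19, adjusted p = 0.0252). EIF3I exon 11 held 17.1, 16.6 and 22.8 CPM in MDH2 IP against 31.0, 35.1 and 43.0 in SMI and 32.8, 14.5 and 9.61 in IgG IP (-1.17 ± 0.26 over SMI, adjusted p = 0.00780). EIF3D exon 15 held 5.07, 7.56 and 4.43 CPM in MDH2 IP, 11.1, 9.41 and 12.2 in SMI and 1.77, 8.06 and 5.76 in IgG IP (-1.15 ± 0.35, adjusted p = 0.0497). In the last 3 the MDH2 IP and SMI libraries did not overlap. With 1 library left out, the call of EIF3I exon 11 was lost only without MDH2 IP 1 (adjusted p = 0.0615), while those of EIF1 exon 2 (adjusted p up to 0.136), EIF4B exon 17 (up to 0.122) and EIF3D exon 15 (up to 0.179) were lost in 4, 5 and 5 of the 6 fits.

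**Figure D5:**
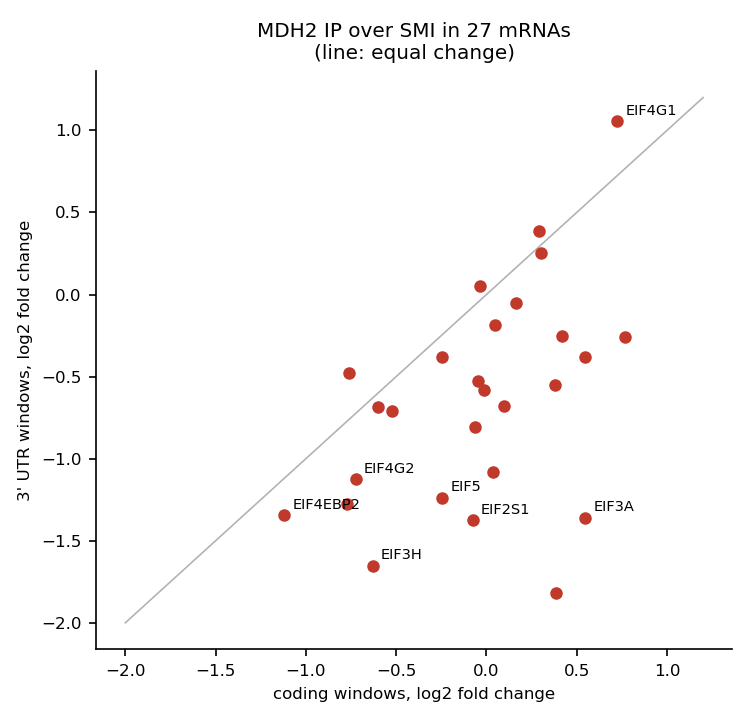
Log2 fold change of MDH2 IP over SMI in the 3′ UTR (vertical axis) against the coding part (horizontal axis) of 27 mRNAs, with the line of equal change. Points lie below the line in 23 mRNAs, and EIF4G1 is at the upper right.

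EIF3E, EIF3F, EIF3H and EIF4B carry a 5′ terminal oligopyrimidine tract, which couples their translation to growth signals. Of these 4, 2 were lower over SMI (EIF3E and EIF3H), with a median of -0.62, and 0 were called over IgG IP, beside 10.7% of all genes lower over SMI and 0.302% higher and 1.8% lower over IgG IP. Among 27 other genes of the pathway that could be tested over SMI, out of 29 listed, 2 were higher and 6 lower, beside 8.6% and 10.7% of all genes, with a median of -0.12. The higher ones were EIF3C (1.94, adjusted p = 0.0102), whose near-identical copy EIF3CL makes its counts uncertain, and EIF4ENIF1, which carries eIF4E into the nucleus (0.69, adjusted p = 0.0380). Over IgG IP 0 of 26 were called.

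Intron windows of 38 members could be tested over SMI, with 8 higher and 6 lower (median -0.01), beside 17.3% and 15.7% of all genes. EIF4G3 introns held 2754, 1824 and 1280 counts in MDH2 IP, 5559, 6166 and 4574 in SMI and 1088, 783 and 458 in IgG IP (-0.99 ± 0.17 over SMI, adjusted p = 0.00274), and introns made up 68.5, 89.7 and 89.8% of its counts in the 3 groups. EIF4A1 introns held 302, 143 and 190 counts in MDH2 IP, 79, 81 and 100 in SMI and 150, 125 and 128 in the shallower IgG IP libraries (1.79 ± 0.20 over SMI, adjusted p = 0.000540), and introns made up 6.92, 2.54 and 20.4% of its counts in the 3 groups. EIF4A2 introns held 158, 115 and 103 counts in MDH2 IP, 34, 38 and 77 in SMI and 27, 36 and 27 in IgG IP (1.88 ± 0.30 over SMI, adjusted p = 0.00215), and introns made up 5.72, 0.985 and 8.16% of its counts. In both genes the intron share was highest in IgG IP, as it was over all window counts. Of all counts in IgG IP, exons took 31.0 to 38.5%, the lowest share of the 3 groups. The value of EIF2B5 introns (1.26 ± 0.12, adjusted p = 0.000263) cannot be assigned to that gene, since 99.5% of those MDH2 IP counts lay in an intron 12 that in the deposited gene model runs past the annotated end of EIF2B5, and 56.0% of that intron's counts lay over EIF4G1. All 25 called intron windows of the members were in it, 21 of them over EIF4G1.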

How the data were processed

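The deposited tables hold counts: the authors trimmed the reads (cutadapt), aligned them to hg38 (STAR), removed PCR duplicates by their molecular identifiers and counted cross-link sites in windows of 50 nt at steps of 20 nt along exons and introns of a GENCODE annotation. The tables listed 15767969 windows of 35309 identifiers in 9 libraries, and 0 columns were left unused. Counts were summed over the exon windows of each gene and of each exon, and over introns. Identifiers were named from GENCODE release 44, and 401 of 466 member exons were placed on GRCh38 by matching window numbers to exon lengths. Summed windows count a cross-link more than once, and the alternative of 1 window in 3 removes that overlap.

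Groups were compared with the quasi-likelihood test of edgeR 4.0.16 (R 4.3.3) after TMM normalisation, among features with at least 10 counts in 3 libraries, with Benjamini-Hochberg adjustment over all features tested and a threshold of 0.05. SE is the log2 fold change divided by the square root of F. Scripts were tested on simulated data. Values per library, of the gene or of a called exon or region, were given for members called in either MDH2 IP comparison at gene, exon or window level and for the 5 with the highest SMI level, with other members given by their values. Alternatives were total counts, DESeq2 1.42.0 size factors and test, lower filters, other window sets, all 9 libraries in 1 fit, a replicate block and leaving out each library. The members and lists were chosen with earlier results of these data known. UTR sums and the exclusion of nested small RNA genes were added after the data were seen. Molecular identifiers reduce but do not remove counting error, which was not modelled apart from the replicate spread. A sequence of 1 other member is not reported here.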

Additional observations from a re-analysis of the deposited data

How the results depend on the processing

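Shares of all features called were counted for the main fits only. The counts under other settings in this section therefore show how calls depend on the processing and are not results about the members. Whole genes, MDH2 IP over SMI (4 members higher, 9 lower): higher counts were 7 with exons and introns together, 7 with total counts and 10 with a replicate block, and lower counts 5 with all 9 libraries in 1 fit, 4 with total counts and 15 with the block. Leaving out 1 library gave 1 to 6 higher and 4 to 7 lower. Total counts moved the median of all genes from 0.01 to 0.17 (log2). Over IgG IP (0 higher, 1 lower), higher counts were 1 with the DESeq2 test, 3 with at least 1 count in any library, 15 with exons and introns, 1 with all 9 libraries and 3 with the block, and leaving out 1 library gave 0 to 0 higher and 0 to 1 lower. For IgG IP over SMI (1 higher, 8 lower), higher counts were 2 with DESeq2, 0 with at least 1 count, 2 with 1 window in 3, 3 with exons and introns, 2 with all 9 libraries and 3 with the block, lower counts were 14 with at least 1 count, 5 with 1 window in 3 and 13 with the block, and leaving out 1 library gave 0 to 2 and 3 to 7.

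Exons, MDH2 IP over SMI (13 higher, 31 lower): 6 and 15 with all 9 libraries, 30 and 53 with the replicate block, 38 and 15 with total counts, and 4 to 12 and 14 to 28 leaving out 1 library. Over IgG IP (1 higher, 2 lower) higher counts were 2 with DESeq2, 2 with all 9 libraries and 4 with the block, lower counts were 0 with at least 5 counts in 3 libraries and 1 with total counts, and leaving out 1 library gave 0 to 3 and 0 to 2. For IgG IP over SMI (6 higher, 21 lower) higher counts were 3 with at least 5 counts, and leaving out 1 library gave 1 to 6 and 11 to 26. Exon windows over SMI (37) were 71 without the overlap correction, 69 with the block, 236 with total counts, which moved the median of all windows from 0.02 to 0.53, and 4 to 23 leaving out 1 library. Over IgG IP (0) they were 1 with at least 5 counts, 39 with total counts (median of all windows 0.93 against 0.15), 1 with a two-sided p and 0 to 0 leaving out 1 library, and for IgG IP over SMI (1) they were 10, 6 without the overlap correction, 0 with total counts and 0 to 3. Introns (8 higher, 6 lower) gave 13 lower with the block and 6 to 9 and 2 to 4 leaving out 1 library.

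EIF4A1 over SMI turned from -0.34 to 0.064 with exons and introns and to 0.13 without nested small RNA windows, where EIF4A2 turned from -1.38 to 0.17. The replicate numbers were not treated as pairing in the main fits. The deviations of MDH2 IP and SMI libraries of the same number correlated at 0.075, 0.485 and 0.497. Those of unlike numbers correlated at -0.483 to 0.061, so numbers 2 and 3 may be paired and the main fits would then leave that pairing out. The replicate block given above allows for it. The cause of the changes between settings was not tested.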
